A study of Mus musculus with 12 samples.

Results

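The fibroblast growth factor (FGF) genes described here are 10 members, chosen as every probe set whose only gene symbol on the array annotation was Fgf2, Fgf7, Fgf10, Fgf18, Fgfr1, Fgfr2, Fgfr3, Spry1, Spry2 or Spry4. They stand among 18193 genes named by a probe set of their own, and they had 20 probe sets among the 45037 on the array other than controls. The arrays were 1-colour Affymetrix arrays of whole newborn mouse bladder at postnatal day 1, strain FVB/N, 1 array per RNA sample with no pooling. The groups were SMGA/EGFP transgenic bladders (3 arrays), SMAA/EYFP transgenic bladders (3 arrays) and wild-type bladders (6 arrays). SMGA and SMAA stand for the smooth muscle gamma-actin and alpha-actin promoters, which drive a green and a yellow fluorescent reporter in smooth muscle, and all animals were labelled male. Transgenic litters came from transgenic sires mated to FVB/N dams, so sire, litter and genotype cannot be told apart. The series asked how transgene expression bears on the bladder's expression profile, and nothing in the labels says that arrays of a group came from separate litters, so the p-values measure the spread between these arrays.

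FGF ligands are secreted proteins that bind receptor tyrosine kinases together with heparan sulfate and signal through Ras and ERK. In the developing bladder and similar organs, stromal Fgf7 and Fgf10 act on the epithelium through a splice form of Fgfr2. Sprouty genes are induced by this signalling and encode intracellular inhibitors that feed back on it. Whole bladder mixes stroma, smooth muscle and urothelium, so fewer cells of a type and less RNA per cell cannot be told apart in any value below.

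Intensity is the deposited linear brightness of a probe set. Level is log2(intensity + 16) after quantile normalization between arrays, and differences are of levels, so folds of dim probe sets are understated. The median intensity per array lay between 229 and 306. The labelled tissue was checked against its markers: all 8 smooth muscle and all 15 urothelium markers were above the filter on dim probe sets, and none of them was listed at 0. One wild-type array, wild type 4, went against its label. It had an Xist intensity of 29604, against 80.1 to 250 on the other 11 arrays, and an Eif2s3y intensity of 26.7, against 3284 to 5096. It was kept. Without it no member passed limma's test either. The main probe sets of the tested members kept their direction except Spry1 in SMAA/EYFP against wild type. Other values below were not all compared in this way. The record numbers of the arrays formed a pair of runs, which the labels do not call batches. The first run held SMGA/EGFP 1 to 3 and wild type 1 to 3, and the second held SMAA/EYFP 1 to 3 and wild type 4 to 6, so the transgenic groups never met within a run.

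No FGF member passed the test in any comparison. Of the 20 probe sets, 13 lay above the filter on dim probe sets (mean level over 8.02) and were tested, and they covered 8 of the 10 members. The test was limma's, over 22518 probe sets, with Benjamini-Hochberg adjusted p under 0.05 as the threshold. In SMGA/EGFP against wild type 0 of 13 member probe sets passed limma's test, against 0.0622% of all probe sets tested. In SMAA/EYFP against wild type 0 of 13 passed limma's test, against 0% of all. In SMGA/EGFP against SMAA/EYFP 0 of 13 passed limma's test, against 0.0799% of all. For both transgenic groups combined against wild type 0 of 13 passed limma's test, against 0.00444% of all. With so few calls among all probe sets, a count of 0 in 13 does not set the members apart.

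At an unadjusted p under 0.05 the same limma fits held 3, 2, 4 and 1 of the 13 member probe sets in these comparisons in the same order. They were both Fgf7 probe sets and Fgf18, then Fgfr1 1424050_s_at and 1425911_a_at. In the third comparison they were both Fgf7 probe sets, Fgf18 and Fgfr1 1424050_s_at, and in the last Fgfr1 1424050_s_at. Several of these probe sets thus measure the same gene, so the counts are not of separate genes. The shares of all tested probe sets below that p were 6.92%, 4.81%, 9.31% and 4.18%. The median difference of the 13 member probe sets was 0.03 in SMGA/EGFP against wild type (7 higher, 6 lower), where that of all tested probe sets was -0.01. It was -0.04 in SMAA/EYFP against wild type (6 higher, 7 lower), where that of all was 0.00. It was 0.07 in SMGA/EGFP against SMAA/EYFP (8 higher, 5 lower), where that of all was -0.02. The members did not share a direction. The comparisons share arrays, wild-type or transgenic, so their values are given side by side and not as separate evidence.

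Without overlap between the levels of the groups' arrays there were 2 of 13 member probe sets in SMGA/EGFP against wild type (15.4%, against 2.72% of all tested), Fgf7 1422243_at and Spry1. There was 1 of 13 in SMAA/EYFP against wild type (7.69%, against 2.99% of all), the main probe set of Fgfr1. In SMGA/EGFP against SMAA/EYFP there were 5 of 13 (38.5%, against 14.5% of all), namely both probe sets of Fgf7, Fgf18, the main probe set of Fgfr1, and Spry1.

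**Figure D1:**
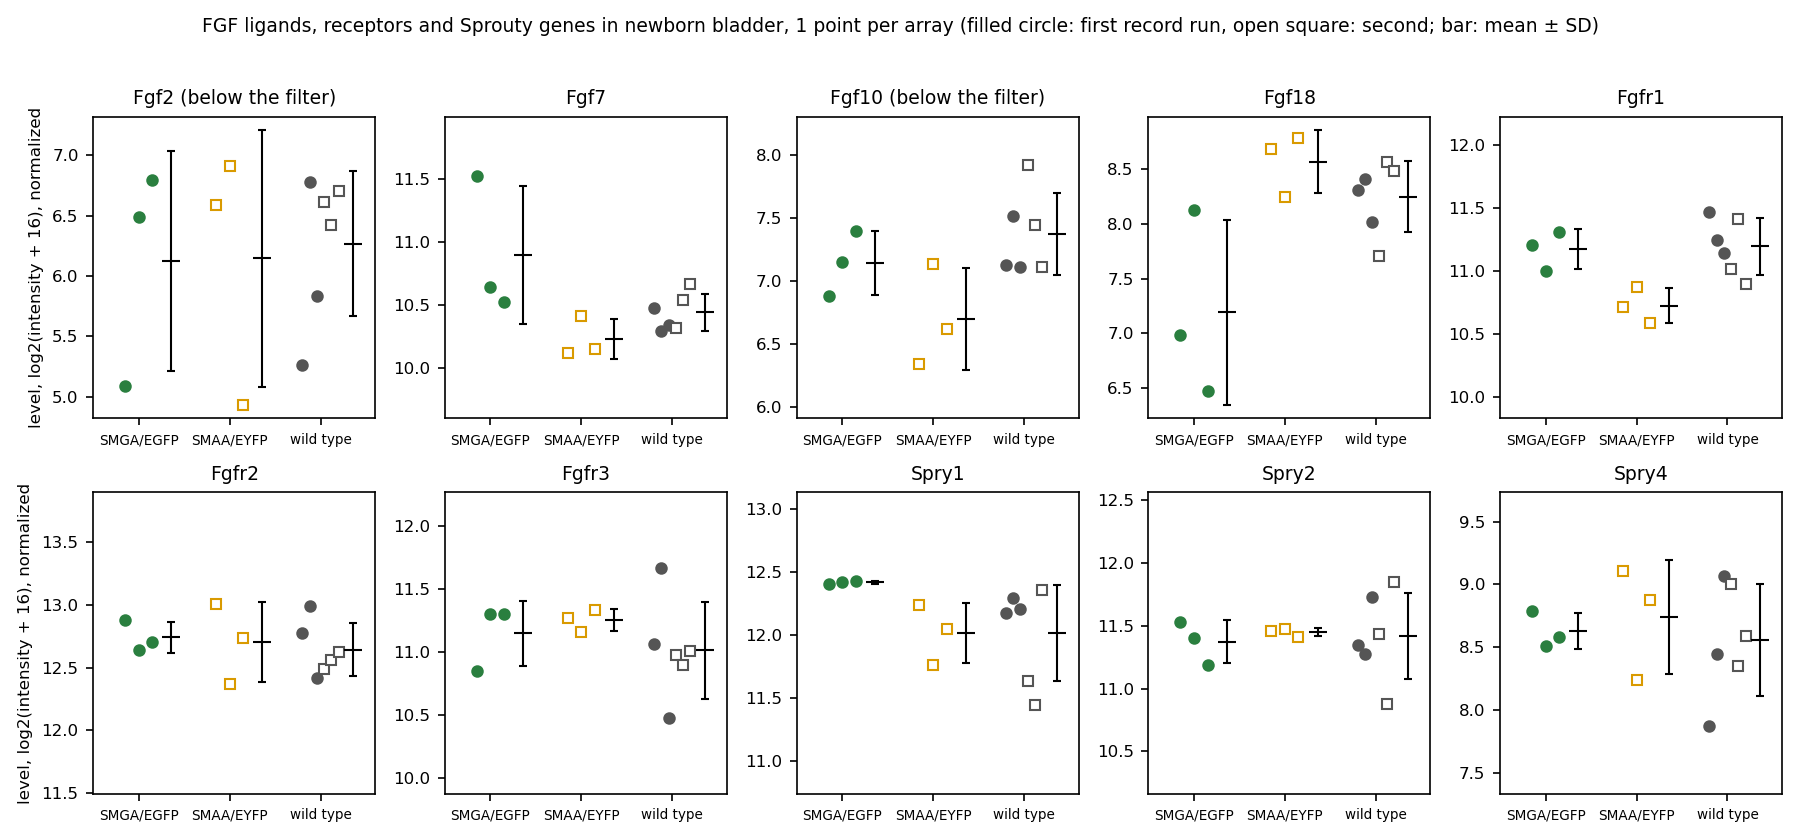
Level (log2(intensity + 16), normalized) of the main probe set of each FGF member, 1 point per array, SMGA/EGFP, SMAA/EYFP and wild type from left to right, filled circles for the first record run and open squares for the second, bars for mean ± SD (n = 3, 3 and 6); axes differ between panels. Fgf18 lies lowest on 2 of 3 SMGA/EGFP arrays, Fgf7 is highest on SMGA/EGFP 1, and Spry1 differs little among the SMGA/EGFP arrays.

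**Figure D2:**
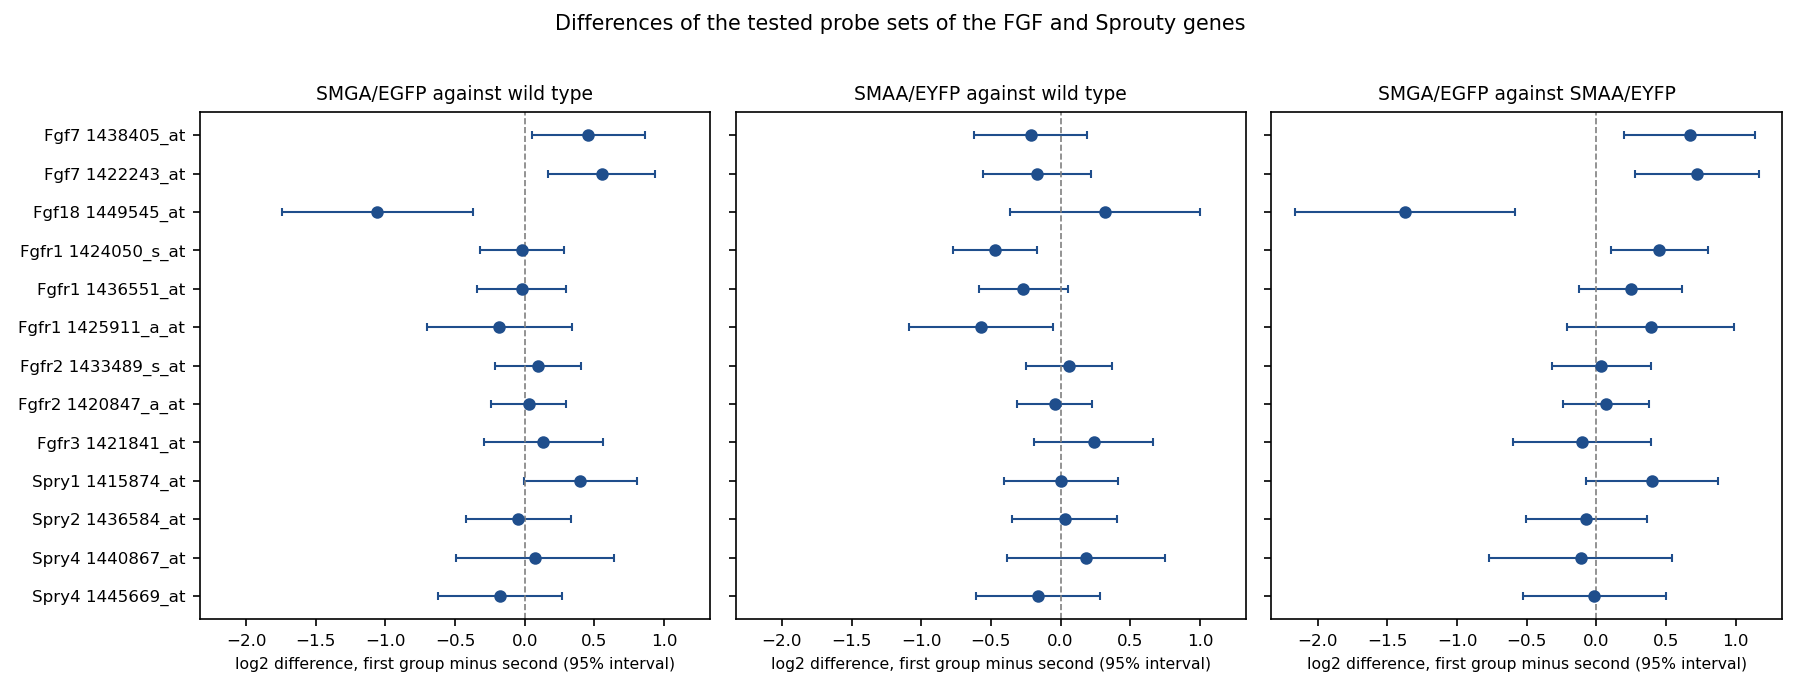
Difference of levels (log2, first group minus second) with its 95% interval for the 13 tested member probe sets, for SMGA/EGFP against wild type, for SMAA/EYFP against wild type, and for SMGA/EGFP against SMAA/EYFP. The Fgf7 and Fgf18 intervals lie on opposite sides of 0 where SMGA/EGFP is compared, the widest intervals are those of Fgf18, and no probe set passed after adjustment.

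Among the ligands, Fgf7 and Fgf18 had differences of opposite sign. Fgf7, also called keratinocyte growth factor, is made by stroma and acts on epithelium. Fgf18 is made mainly by mesenchyme and is best known for its part in bone, cartilage and lung development. The RefSeq promoters of the pair (GRCm38.p6, bases 250 before to 50 after the gene start, on the gene's strand) are shown because these ligands had the largest differences among the tested probe sets of the 10 members. Fgf7 lies at chr2:126034408-126034707 on the plus strand and has 45.7% G and C, and Fgf18 lies at chr11:33147351-33147650 on the minus strand and has 78.7%. Capitals mark matches on either strand to the GC box GGGCGG, the CCAAT box CCAAT, the TATA box TATAAA or the ETS core CCGGAA.
Fgf7: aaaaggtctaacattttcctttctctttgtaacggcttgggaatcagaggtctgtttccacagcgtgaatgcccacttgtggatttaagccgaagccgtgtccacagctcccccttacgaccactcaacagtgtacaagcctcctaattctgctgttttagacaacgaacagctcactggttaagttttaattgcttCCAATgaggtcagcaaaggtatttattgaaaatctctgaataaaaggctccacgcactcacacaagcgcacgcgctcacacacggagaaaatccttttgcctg
Fgf18: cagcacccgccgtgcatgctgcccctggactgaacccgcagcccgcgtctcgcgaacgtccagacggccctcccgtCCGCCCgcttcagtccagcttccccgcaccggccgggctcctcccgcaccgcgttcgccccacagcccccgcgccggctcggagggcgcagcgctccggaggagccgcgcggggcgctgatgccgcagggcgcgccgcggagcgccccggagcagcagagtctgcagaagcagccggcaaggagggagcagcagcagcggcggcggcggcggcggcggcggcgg
The Fgf7 window holds 1 CCAAT box, at position -53 from the gene start, and the Fgf18 window holds 1 GC box on the opposite strand, at position -174. Of 32851 promoters of this length, 37.4% hold a CCAAT box, 35.7% a GC box, 13.6% a TATA box and 14.9% an ETS core, so these matches are common. Windows were matched for 8 of the 10 members, and a match describes letters and not a site in use.

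Fgf7 was highest in SMGA/EGFP bladders by both of its probe sets. By its brighter probe set, 1438405_at, the intensities were 2894, 1570 and 1474 in SMGA/EGFP and 1049, 1364 and 1122 in SMAA/EYFP bladders, and the 6 wild-type bladders had a lowest of 1236, a median of 1369 and a highest of 1560. SMGA/EGFP 1 stood far above the rest, and the other two SMGA/EGFP arrays lay near or within the wild-type range. Its level differed by 0.46 ± 0.19 (limma's SE, 95% interval 0.05 to 0.86) between SMGA/EGFP and wild type, which did not pass limma's test (adjusted p = 0.712). Without SMGA/EGFP 1 the difference was 0.14, and within the first record run it was 0.52 ± 0.26 (SE). By the second probe set, 1422243_at, SMGA/EGFP bladders had 1844, 1210 and 1075, SMAA/EYFP bladders had 750, 978 and 647, and wild-type bladders ran from 746 over a median of 912 to 1030. Every SMGA/EGFP value lay above every wild-type value there, by a mean of 0.55 ± 0.18 in level (SE, limma adjusted p = 0.678).

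SMAA/EYFP bladders had Fgf7 levels that overlapped those of wild type. The difference was -0.21 ± 0.19 (SE, 95% interval -0.62 to 0.19, limma adjusted p = 0.993) for 1438405_at and -0.17 ± 0.18 for 1422243_at. Between the transgenic groups the difference was 0.67 ± 0.22 (SMGA/EGFP minus SMAA/EYFP, 95% interval 0.20 to 1.14), a fold of 1.59, with a limma adjusted p of 0.416, and without SMGA/EGFP 1 it was 0.36. The second probe set differed by 0.72 ± 0.21 (limma adjusted p = 0.371). Across the 12 arrays the pair of Fgf7 probe sets had a Pearson correlation of 0.92, with array and RNA shared.

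Fgf18 was dim and lowest in SMGA/EGFP bladders. Its intensities were 133, 261 and 67.1 in SMGA/EGFP and 356, 281 and 422 in SMAA/EYFP bladders, and the wild-type bladders ran from 198 over a median of 321 to 351. SMGA/EGFP 1 and 3 lay below every other array, while SMGA/EGFP 2 lay inside the wild-type range. The level differed by -1.06 ± 0.32 (SE, 95% interval -1.74 to -0.37) between SMGA/EGFP and wild type, a fold of 0.481, and did not pass limma's test (adjusted p = 0.653). The difference was -1.52 without SMGA/EGFP 2, -0.69 without SMGA/EGFP 3, and -1.05 ± 0.41 (SE) within the first record run. Between SMAA/EYFP and wild type it was 0.32 ± 0.32 (95% interval -0.36 to 1.00, limma adjusted p = 0.994). Between SMGA/EGFP and SMAA/EYFP it was -1.38 ± 0.37 (95% interval -2.17 to -0.59), with a limma adjusted p of 0.329, the lowest of any member. With limma's array weights that adjusted p was 0.0719.

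Mesothelium markers were also lower in the SMGA/EGFP group. All 6 of 6 (Msln, Muc16, Lrrn4, Gpm6a, Wt1 and Upk3b) were lower in SMGA/EGFP than in wild-type bladders, and 3 of them fell by limma's test (Gpm6a with -2.74, Lrrn4 with -2.75 and Muc16 with -2.06 on the log2 scale). Their summed intensity was 15469 to 16972 in SMGA/EGFP, 26566 to 35459 in SMAA/EYFP and 17676 to 27332 in wild-type bladders, and no marker was at 0. The wild-type sums differed by record run, with 17676 to 20477 in the first, which held SMGA/EGFP, and 23708 to 27332 in the second. The differences above are from the wild-type arrays of both runs. By mean marker level the order among the SMGA/EGFP arrays differed from that of Fgf18. Number 2 had the lowest mean marker level (-1.45 from the mean of all arrays, log2) and the highest Fgf18 intensity (261). Number 3 had the highest mean marker level (-1.15) and the lowest Fgf18 (67.1). By summed intensity the order was another, with number 2 highest (16972), number 3 next (16635) and number 1 lowest (15469). The part of these markers in the Fgf18 values was not tested. Fgf18 lay just inside the filter on dim probe sets, with a mean level of 8.07, and its within-group SD of 0.49 was larger than that of 92.8% of all tested probe sets. The brightest member probe set left outside the filter, Spry2 1421656_at, averaged 7.51 in SMGA/EGFP, 8.02 in SMAA/EYFP and 7.78 in wild-type bladders.

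Fgf2 and Fgf10 were dim on every array and were not tested. Fgf2, a heparin-binding ligand that lacks a classical secretion signal, had intensities of 21.2, 73.1 and 88.6 in SMGA/EGFP and 80.5, 95.3 and 15.5 in SMAA/EYFP bladders, and wild-type bladders ran from 21.0 over a median of 77.2 to 98.45. Low values occurred in each group. Fgf10, the ligand closest to Fgf7 in its receptor, had intensities of 121, 125 and 145 in SMGA/EGFP and 65.4, 115 and 85.7 in SMAA/EYFP bladders, and wild-type bladders ran from 110 over a median of 141 to 230. Of the SMAA/EYFP arrays, 2 of 3 lay below every wild-type array. With no filter the Fgf10 level differed by -0.67 ± 0.29 (SE) between SMAA/EYFP and wild type and did not pass limma's test (adjusted p = 0.996).

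**Figure D3:**
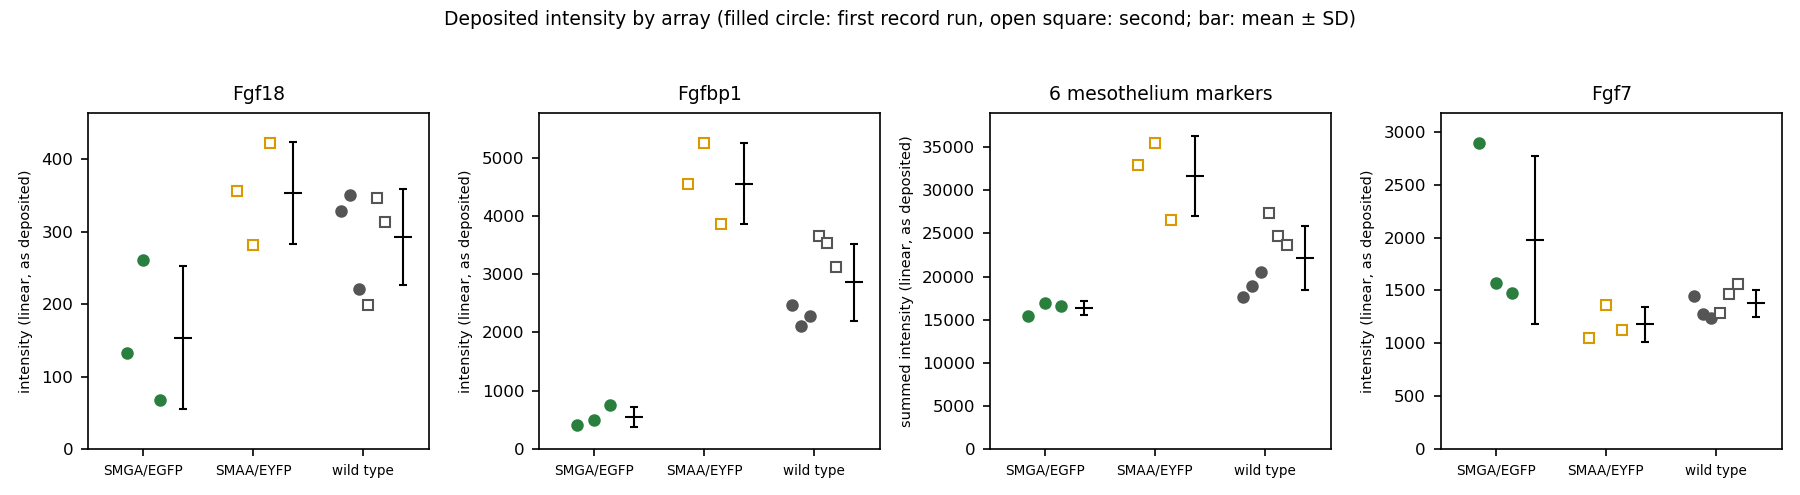
Deposited linear intensity of Fgf18, of the FGF carrier Fgfbp1, of the 6 mesothelium markers summed, and of Fgf7, 1 point per array, SMGA/EGFP, SMAA/EYFP and wild type from left to right, filled circles for the first record run and open squares for the second, bars for mean ± SD (n = 3, 3 and 6). Fgfbp1 lies below every other array on all 3 SMGA/EGFP arrays (418 to 748), while Fgf18 on SMGA/EGFP 2 lies inside the wild-type range.

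Among the receptors, Fgfr1 was lower in SMAA/EYFP than in wild-type bladders by all 3 of its tested probe sets, and none of them passed. Fgfr1 is the receptor of many mesenchymal cells. By its brightest probe set, 1424050_s_at, the intensities were 2351, 2036 and 2587 in SMGA/EGFP and 1623, 1881 and 1527 in SMAA/EYFP bladders, and wild-type bladders ran from 1844 over a median of 2328 to 2843. On the deposited scale SMAA/EYFP 2 lay above the lowest wild-type array, and after normalization no SMAA/EYFP array overlapped wild type. The level differed by -0.47 ± 0.14 (SE, 95% interval -0.77 to -0.17) between SMAA/EYFP and wild type, a fold of 0.721, with a limma adjusted p of 0.991. Within the second record run it was -0.38 ± 0.16 (SE, limma adjusted p = 0.684). Between SMGA/EGFP and wild type it was -0.02 ± 0.14 (95% interval -0.32 to 0.28), and between SMGA/EGFP and SMAA/EYFP it was 0.45 ± 0.16 (95% interval 0.10 to 0.80, limma adjusted p = 0.461).

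The other Fgfr1 probe sets had weaker signals. 1436551_at had 801, 547 and 548 in SMGA/EGFP and 502, 466 and 493 in SMAA/EYFP bladders, against 529 to 659 in wild-type bladders, and every SMAA/EYFP array lay below wild type on the deposited scale, but SMAA/EYFP 1 overlapped wild type after normalization. Its level differed by -0.27 ± 0.15 between SMAA/EYFP and wild type (SE, 95% interval -0.59 to 0.05). 1425911_a_at had 255, 258 and 349 in SMGA/EGFP and 205, 247 and 146 in SMAA/EYFP bladders, against 233 to 377 in wild-type bladders, a difference of -0.57 ± 0.24 (SE, 95% interval -1.09 to -0.05). All 3 Fgfr1 probe sets were thus lower in the SMAA/EYFP mean, but array by array they were only loosely related, with Pearson correlations of 0.23 to 0.45 across the 12 arrays. A suffix _s_at marks a probe set that may take up transcripts of other genes as well. Of 8 fibroblast markers 7 were lower in SMAA/EYFP than in wild-type bladders and 0 passed limma's test (Pdgfra by -0.32 ± 0.11, SE). Their summed intensity was 270232 to 302115 in SMAA/EYFP and 272544 to 311480 in wild-type bladders. Their median difference was -0.12. Other lists were lower as well: endothelium markers in 8 of 8 cases (median -0.25) and skeletal muscle markers in 6 of 6 (median -0.31), with 0 passing limma's test. In SMGA/EGFP against wild type, 6 of 8 fibroblast markers (median -0.05) and 7 of 8 endothelium markers (median -0.21) were lower. There 4 of 6 skeletal muscle markers were lower (median -0.10). The part of these lists in the Fgfr1 values was not tested.

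Fgfr2 had small differences with narrow intervals by its tested probe sets. It is the receptor of Fgf7 and Fgf10 in epithelium, where its splice form decides which ligands bind, and these probe sets were not used to tell the splice forms apart. By 1433489_s_at the intensities were 7311, 6391 and 6707 in SMGA/EGFP and 8289, 5281 and 6822 in SMAA/EYFP bladders, and wild-type bladders ran from 5496 over a median of 6207 to 8012. All groups overlapped. Levels differed by 0.10 ± 0.14 (SE, 95% interval -0.21 to 0.41) between SMGA/EGFP and wild type and by 0.06 ± 0.14 (95% interval -0.25 to 0.37) between SMAA/EYFP and wild type. By 1420847_a_at, the member probe set with the smallest within-group SD (0.15), the differences were 0.03 ± 0.12 and -0.04 ± 0.12 (SE) in the same order, with intervals of -0.24 to 0.30 and -0.31 to 0.23. Another probe set, 1443211_at, was dim and not tested, with 51.1 to 117 in SMGA/EGFP, 15.7 to 50.4 in SMAA/EYFP and 41.0 to 116 in wild-type bladders. With no filter its level differed by -1.06 ± 0.37 (SE, 95% interval -1.85 to -0.27) between SMAA/EYFP and wild type. This did not pass limma's test (adjusted p = 0.996). Between SMGA/EGFP and wild type the difference was -0.05 ± 0.37.

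Fgfr3, a receptor of urothelium that is often mutated in human urothelial tumours, also overlapped between the groups. By 1421841_at the intensities were 1838, 2506 and 2557 in SMGA/EGFP and 2417, 2295 and 2565 in SMAA/EYFP bladders, and wild-type bladders ran from 1363 over a median of 2015 to 3256. Wild-type bladders held both the lowest and the highest value. Levels differed by 0.13 ± 0.20 (SE, 95% interval -0.29 to 0.56) between SMGA/EGFP and wild type and by 0.24 ± 0.20 (95% interval -0.19 to 0.67, limma adjusted p = 0.991) between SMAA/EYFP and wild type. Within the second record run the SMAA/EYFP difference was 0.29 ± 0.11 (SE, limma adjusted p = 0.682). Urothelium markers were higher than in wild type in 15 of 15 cases in SMAA/EYFP bladders (median difference 0.28). In SMGA/EGFP bladders they were higher in 14 of 15 (median 0.16), and 0 passed limma's test in either comparison. Their summed intensity was 355533 to 393543 in SMAA/EYFP and 269564 to 365175 in wild-type bladders, and their part in the Fgfr3 values was not tested. The second probe set, 1425796_a_at, was dim (92.4 to 198 over the 12 arrays) and not tested.

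Among the tested probe sets of the Sprouty genes, Spry1 alone had SMGA/EGFP levels that overlapped neither wild type nor SMAA/EYFP, and those of Spry2 and Spry4 overlapped in every comparison. The promoters of Spry1 (chr3:37639697-37639996, plus strand, 64.3% G and C) and Spry2 (chr14:105896770-105897069, minus strand, 62.7%) are shown for the comparison of these paralogs, with the same marking as above.
Spry1: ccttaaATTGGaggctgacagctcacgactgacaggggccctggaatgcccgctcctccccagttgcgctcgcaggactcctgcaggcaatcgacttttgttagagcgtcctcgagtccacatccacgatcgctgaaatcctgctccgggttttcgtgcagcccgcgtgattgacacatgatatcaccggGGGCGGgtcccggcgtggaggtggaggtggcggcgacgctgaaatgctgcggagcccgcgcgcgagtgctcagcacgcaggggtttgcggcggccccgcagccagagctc
Spry2: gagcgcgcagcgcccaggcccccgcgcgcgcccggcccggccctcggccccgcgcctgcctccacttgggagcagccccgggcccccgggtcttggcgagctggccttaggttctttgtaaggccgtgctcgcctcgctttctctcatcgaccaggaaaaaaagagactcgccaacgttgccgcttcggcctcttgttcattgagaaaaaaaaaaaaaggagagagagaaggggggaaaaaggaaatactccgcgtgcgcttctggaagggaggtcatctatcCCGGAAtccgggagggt
The Spry1 window holds a GC box at position -60 and a CCAAT box on the opposite strand at position -244, and the Spry2 window holds an ETS core at position 33. No motif match overlaps another in these windows.

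Spry1, by its 1 probe set 1415874_at, had intensities of 5249, 5482 and 5556 in SMGA/EGFP and 4814, 3519 and 4259 in SMAA/EYFP bladders, and wild-type bladders ran from 2753 over a median of 4648 to 5268. The SMGA/EGFP arrays lay close together, with a mean level of 12.42 ± 0.01 (SD, n = 3), where wild type had 12.02 ± 0.38 (SD, n = 6). On the deposited scale the lowest SMGA/EGFP array lay just under the highest wild-type array, and after normalization none overlapped. Its level differed by 0.40 ± 0.19 (SE, 95% interval -0.01 to 0.81, limma adjusted p = 0.720) between SMGA/EGFP and wild type. The wild-type bladders themselves differed by run, with mean levels of 12.22 in the first and 11.81 in the second, where wild type 4 and 5 were lowest. Within the first run the SMGA/EGFP difference was 0.19 ± 0.11 (SE). Between SMAA/EYFP and wild type it was 0.00 ± 0.19 (95% interval -0.41 to 0.41) over all arrays and 0.21 ± 0.23 (SE) within the second run. Without wild type 4 these differences were 0.32 for SMGA/EGFP and -0.08 for SMAA/EYFP. Between SMGA/EGFP and SMAA/EYFP it was 0.40 ± 0.22 (95% interval -0.07 to 0.87, limma adjusted p = 0.589), and -0.01 once the record run entered as a block.

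**Figure D4:**
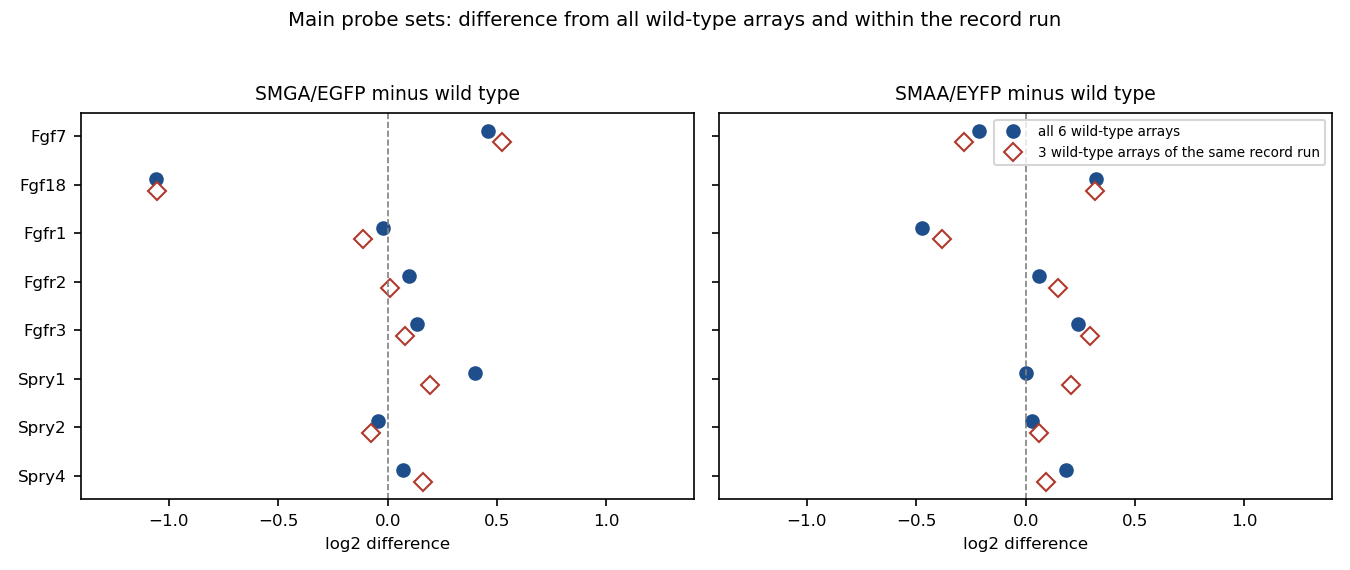
Difference of levels (log2) of the main probe set of the 8 tested members, SMGA/EGFP minus wild type and SMAA/EYFP minus wild type, taken against all 6 wild-type arrays (filled circles) and against the 3 wild-type arrays in its own record run (open diamonds). Spry1 moves most, from 0.40 over all arrays to 0.19 within the run in SMGA/EGFP, while Fgf18 and Fgf7 stay close.

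Spry2, by 1436584_at, had intensities of 2893, 2698 and 2354 in SMGA/EGFP and 2775, 2859 and 2709 in SMAA/EYFP bladders, and wild-type bladders ran from 1855 over a median of 2687 to 3651. The wild-type arrays spanned both extremes. The level differed by -0.05 ± 0.17 (SE, 95% interval -0.42 to 0.33) between SMGA/EGFP and wild type, and by 0.03 ± 0.17 (95% interval -0.35 to 0.40) between SMAA/EYFP and wild type. A dim second probe set, 1421656_at, had 141 to 215 in SMGA/EGFP and 203 to 273 in SMAA/EYFP bladders, against 124 to 345 in wild-type bladders. Its SMGA/EGFP levels lay below those of SMAA/EYFP without overlap after normalization, by a mean of -0.51 ± 0.36 (SE, no filter, limma adjusted p = 0.767), and both groups overlapped wild type. Spry4 had 2 tested probe sets. By 1440867_at the intensities were 494, 346 and 366 in SMGA/EGFP and 486, 280 and 449 in SMAA/EYFP bladders, against 239 to 506 in wild-type bladders, with level differences of 0.07 ± 0.26 and 0.19 ± 0.26 (SE) in the same order. By 1445669_at they were 331, 327 and 291 in SMGA/EGFP and 304, 265 and 303 in SMAA/EYFP bladders, against 243 to 452 in wild-type bladders, with differences of -0.18 ± 0.21 and -0.16 ± 0.21 (SE). These probe sets had a Pearson correlation of -0.21 across the 12 arrays, so they gave no common pattern. The other 2 Spry4 probe sets were dim (7.45 to 122) and not tested.

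**Figure D5:**
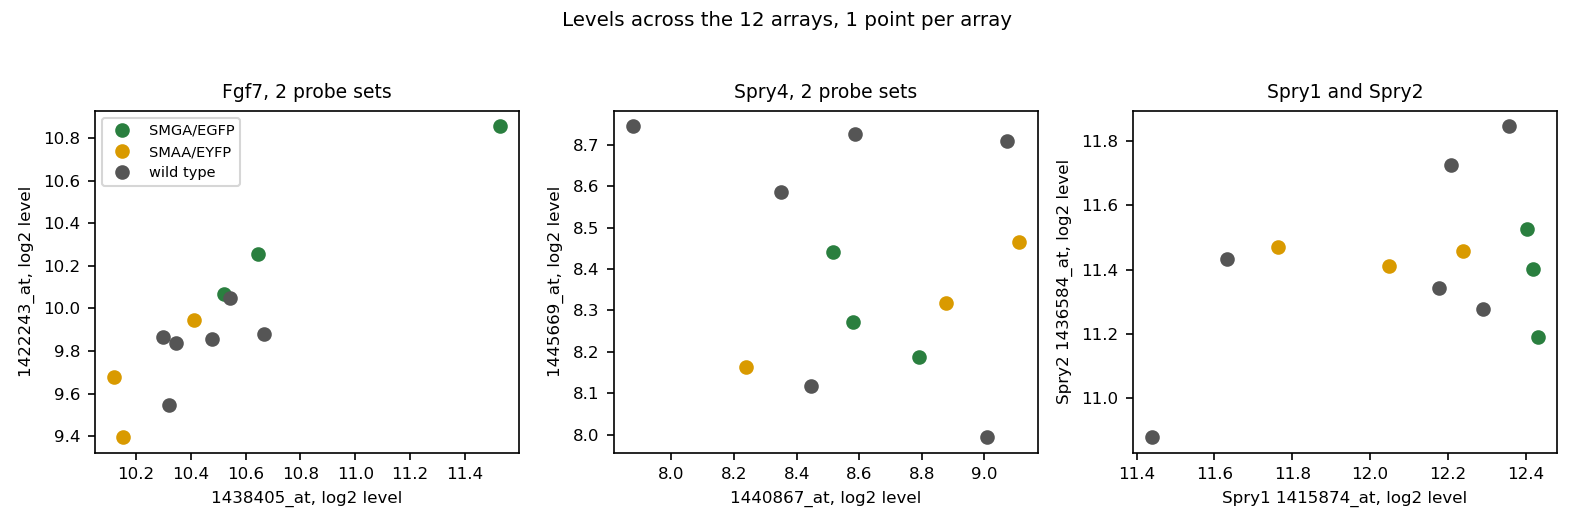
Levels (log2) across the 12 arrays, 1 point per array, coloured by group: Fgf7 by its 2 probe sets, Spry4 by its 2 tested probe sets, and Spry1 beside Spry2. The Fgf7 probe sets follow each other (r = 0.92) with SMGA/EGFP 1 at the top, and the Spry4 probe sets do not (r = -0.21).

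No pair of members had a correlation across the 12 arrays that passed. Among 28 pairs of main probe sets, 15 had a positive correlation and 0 had a permutation p under 0.05, adjusted or not. The strongest was between Fgfr2 and Fgfr3, with Pearson's r = 0.56 (permutation p = 0.0575, adjusted p = 0.601) and Spearman's rho = 0.45 (permutation p = 0.142, adjusted p = 0.506). It was 0.68 in the first and 0.55 in the second record run (6 arrays each). Without the 2 arrays farthest from the median of Fgfr2 (SMAA/EYFP 1 and wild type 2) it was 0.30. Leaving out the extremes of 1 gene narrows its range, so this value cannot tell whether the correlation rests on those arrays. With the group means removed, the pairs with the strongest Pearson correlations were Fgfr1 with Spry2 (-0.66), Fgfr1 with Spry4 (-0.62), Spry1 with Spry2 (0.60), Fgfr2 with Fgfr3 (0.55) and Fgfr2 with Spry1 (0.52), given as a description with no test. On the same scale, the gene most like each member over the 12 arrays was Map3k8 for Fgf7 (Pearson's r = 0.94), Tgfb3 for Fgf18 (0.90), Ext1 for Fgfr1 (0.93) and Cyth2 for Fgfr2 (0.99). For Fgfr3 it was Nipal2 (0.91), for Spry1 Klf6 (0.97), for Spry2 Sox5 (0.88) and for Spry4 Yif1a (0.97). Each is the highest of the correlations with all tested probe sets that name 1 other gene alone, over few arrays, and is given as a description.

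In the rest of the pathway 1 gene passed. Fgfbp1, a secreted carrier that releases FGFs from heparan sulfate, had intensities of 418, 498 and 748 in SMGA/EGFP and 4554, 5249 and 3869 in SMAA/EYFP bladders, and wild-type bladders ran from 2115 to 3651. No group overlapped another. The wild-type arrays differed by record run, with 2479, 2115 and 2285 in the first and 3651, 3534 and 3132 in the second. It fell by 2.43 ± 0.22 on the log2 scale in SMGA/EGFP against wild type (SE, limma adjusted p = 0.000469) and differed by -3.11 ± 0.26 from SMAA/EYFP (limma adjusted p = 0.000127). Within the first record run the SMGA/EGFP difference was -2.14 ± 0.26 (SE), where 3 arrays met 3 and the limma adjusted p was 0.134. In SMAA/EYFP against all wild-type arrays it was 0.68 ± 0.22 (limma adjusted p = 0.991), and the SMAA/EYFP arrays shared a run with the brighter wild-type arrays only. It was the only one of 6 tested genes among the other receptors, klothos and binding proteins to pass in either direction, and the mesothelium markers given above were lower in the same arrays.

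Of 18 other FGF ligands 2 were above the filter, and neither passed. Fgf9 differed by -0.16 ± 0.20 (SE) between SMGA/EGFP and wild type and by 0.09 ± 0.20 between SMAA/EYFP and wild type. Its second probe set differed by -0.22 ± 0.28 and 0.56 ± 0.28 in the same order, and by -0.78 ± 0.32 between SMGA/EGFP and SMAA/EYFP (limma adjusted p = 0.498). Fgf13, an intracellular member of the family, differed by 0.74 ± 0.46 and 0.09 ± 0.46 in the same order. Of 19 tested genes of heparan sulfate, the co-receptor of FGFs, 0 passed limma's test in any comparison. The median difference of these genes was 0.05 in SMGA/EGFP (14 higher, 5 lower) and -0.11 in SMAA/EYFP (6 higher, 13 lower) against wild type. The glycan's core protein Sdc4 differed by 0.33 ± 0.14 (SE, limma adjusted p = 0.712) in SMGA/EGFP, and by 0.55 ± 0.11 (limma adjusted p = 0.200) by a second probe set. Gpc6 differed by -0.32 ± 0.13 (limma adjusted p = 0.991) in SMAA/EYFP, and its other 4 tested probe sets by -0.37 to -0.11.

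Downstream, 0 of 16 tested adaptors and Ras-ERK kinases passed limma's test in any comparison. The adaptor Gab1 differed by 0.28 ± 0.12 (SE) between SMGA/EGFP and wild type, and its other 2 tested probe sets by 0.25 ± 0.13 and 0.03 ± 0.14. The exchange factor Sos1 differed by -0.45 ± 0.16 between SMGA/EGFP and SMAA/EYFP (limma adjusted p = 0.462) by its brighter probe set and by 0.05 ± 0.20 by the other. Of 13 tested feedback inhibitors and ERK target genes 0 passed limma's test, with median differences of 0.15 in SMGA/EGFP and 0.06 in SMAA/EYFP against wild type. Spred2, an ERK inhibitor related to Sprouty, differed by 0.32 ± 0.13 (SE, limma adjusted p = 0.712) in SMGA/EGFP, with 0.43 ± 0.26 and 0.15 ± 0.16 by its other probe sets, and Myc by 0.39 ± 0.17 (limma adjusted p = 0.718). Etv5, an ETS factor induced by FGF signalling, had 3 tested probe sets that disagreed. In SMAA/EYFP against wild type they differed by -0.31 ± 0.16, 0.09 ± 0.20 and -0.02 ± 0.19 (SE), and in SMGA/EGFP against wild type by 0.09 ± 0.16, 0.13 ± 0.20 and 0.59 ± 0.19 (limma adjusted p = 0.678 for the last). Of 14 tested partners in bladder growth 0 passed limma's test, among them the Hedgehog receptor Ptch1 at -0.22 ± 0.10 (SE) in SMGA/EGFP and the ligand Tgfa at 0.38 ± 0.16 in SMAA/EYFP, each against wild type. At an unadjusted p under 0.05 the fits over all probe sets held the shares given above.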

How the data were processed

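Each array was deposited as linear intensity per probe set, which the authors produced in GCOS per the submitters' processing notes, and no version, algorithm or detection call is given in the sources used here. Values were converted to log2(intensity + 16) and quantile-normalized over all probe sets. The 64 controls were then left out, and the brighter part of the rest (mean over log2 8.02, the median of means) was tested. Fits used limma 3.58.1 in R 4.3.3 (lmFit, eBayes with an intensity trend, two-sided) on all 12 arrays, with Benjamini-Hochberg adjustment over 22518 probe sets. Intervals are 95% intervals from the moderated fit. Correlation p-values are two-sided permutation tests (1e+05 resamples) over 28 pairs. The number of arrays limits the precision. Arrays were compared for identical values, and 0 pairs were identical.

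Named genes were all 10 members, with every probe set that names the gene alone, the brightest being the main one. Of the other lists, genes past the threshold and up to 4 of smallest p per comparison were named, and the likest gene per member. Wt1 and the values of wild type arrays in the closing section were chosen after their values were seen. The members and lists were chosen with earlier results of these data known. Symbols came from the platform annotation, updated by gene number (0 changed). Of 45037 probe sets, 34945 had 1 symbol, 932 several and 9160 none. Promoters came from a RefSeq table of GRCm38.p6. The fits were tested on simulated data. Alternatives were other normalizations, pseudocounts, filters, 1 probe set per gene, eBayes options, array weights, subsets of arrays, the record run as a block or alone, and each array left out.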

Additional observations from a re-analysis of the deposited data

Results flagged for a closer look

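Fgf7 (1438405_at) was singled out because all 3 SMGA/EGFP arrays lay above, and all 3 SMAA/EYFP arrays below, the mean of the wild-type arrays. The test of the difference between the transgenic groups gave 0.67 on the log2 scale and did not pass (limma adjusted p = 0.416). Without SMGA/EGFP 1 the value was 0.36. No wild-type array stood apart from the other wild-type arrays in any main probe set of the members by Dixon's criterion.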

How the results depend on the processing

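No member passed under any alternative or with any array left out. Of 601 recomputed member differences 29 changed sign, none of them with a size above 0.40 over all arrays, and of 208 recomputed group levels 3 moved by over 1 SD. With array weights the sign turned for Fgfr1 (0.055) and Spry4 (-0.046) in SMGA/EGFP against wild type and for Spry2 (-0.0017) in SMAA/EYFP against wild type. With a pseudocount of 64 it turned for Spry1 in SMAA/EYFP against wild type (-0.00011). In SMGA/EGFP against SMAA/EYFP it turned for Fgfr2 with median centring (-0.10), and for Spry4 with the values as deposited (0.0092). With the record run as a block it turned there for Fgfr2 (-0.13), Spry1 (-0.015) and Spry4 (0.070). The causes were not tested.

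Leaving out 1 array at a time turned signs in these ranges. In SMGA/EGFP against wild type they were -0.091 to 0.064 for Fgfr1, -0.15 to 0.047 for Spry2 and -0.065 to 0.17 for Spry4. In SMAA/EYFP against wild type they were -0.090 to 0.23 for Fgfr2, -0.12 to 0.13 for Spry1 and -0.080 to 0.11 for Spry2. In SMGA/EGFP against SMAA/EYFP they were -0.13 to 0.19 for Fgfr2, -0.18 to 0.045 for Fgfr3, -0.15 to 0.019 for Spry2 and -0.37 to 0.071 for Spry4.

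Without wild type 4, which went against its label, the SMGA/EGFP difference from wild type was 0.43 for Fgf7 and -1.17 for Fgf18, and that of Fgfr1 in SMAA/EYFP was -0.51. Fgf18 fell under the filter in 2 of 12 fits with an array left out. Counts over all probe sets moved with the fit: in SMGA/EGFP against wild type from 14 to 5 with the 75th percentile filter, 9 with the compared arrays alone and 1 within the first record run, in SMAA/EYFP from 0 to 5 with median centring or array weights, and between the transgenic groups from 18 to 10 with the 75th percentile filter and 2 with the block. The dim probe sets of Fgf2 and Fgf10 lay under the filter and were left out of the main test. No paired analysis was possible because the replicate numbers only name arrays.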

Other observations

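The wild-type arrays 5 and 6 lay at opposite ends for several genes of this pathway, chosen after their values were seen. Wild type 5 had the lowest and wild type 6 the highest intensity of all 12 arrays for Spry2 (1855 and 3651) and for Dusp6, an ERK phosphatase (5269 and 13887). For Spry1 wild type 5 was the lowest array (2753), and wild type 6 was the highest wild-type array (5268).

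Fgf13 was brighter in the first record run than in the second among wild-type bladders, as were the 5 neuron and Schwann cell markers with a probe set, by their mean level. The 3 wild-type arrays of the first run had intensities of 2972, 2224 and 1032, and those of the second run had 617, 726 and 807. The SMGA/EGFP arrays of the first run had 1545, 2317 and 2245, and the SMAA/EYFP arrays of the second had 810, 931 and 2491. The mean marker level (log2, from the mean of all arrays) was 0.92, 0.64 and -0.31 in wild type 1 to 3 and -0.49, -1.21 and -0.94 in wild type 4 to 6. It was 0.26, 0.80 and 0.37 in SMGA/EGFP 1 to 3 and -0.66, -0.02 and 0.64 in SMAA/EYFP 1 to 3, where the third also had the highest Fgf13 of its group. The summed intensity of these markers was 14542 to 19203 in SMGA/EGFP, 10367 to 17302 in SMAA/EYFP and 7935 to 18204 in wild-type bladders, with none at 0, and their part in the Fgf13 values was not tested.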
